A study of Mus musculus with 6 samples.

Results

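A set of 10 genes that germ cells use for meiosis and for handling their RNA was followed in whole ovaries, and the genes were found in the count table by their symbols. They were Sycp1, Sycp2 and Sycp3 of the synaptonemal complex, Stag3, Rec8 and Smc1b of the meiotic cohesin complex, Mael, Ddx4 and Dazl of germ cell RNA metabolism, and the kinase gene Mos. All 10 were found among the 44788 genes of the table. The rule that names them uses no measured value, but they were chosen with earlier results of these data known. The study compared ovaries of wild-type mice (Bnc1+/+) with ovaries of mice homozygous for a truncating Bnc1 allele (Bnc1tr/tr), which carries a 5 bp deletion in exon 4 that shifts the reading frame to an early stop. BNC1, basonuclin 1, is a zinc finger protein of germ cells and some epithelia. Each genotype had 3 ovary libraries, Bnc1+/+ replicates 1, 4 and 7 and Bnc1tr/tr replicates 1, 2 and 3, all from C57BL/6 J mice labelled 8 weeks old, and the labels list no treatment. The allele is present in all cells of the animal, so the ovaries differ in genotype in oocytes and somatic cells alike. The study's methods say that littermates were compared, but which libraries share a litter is not given in the sources used here, nor are the stage of the estrous cycle and whether 1 or both ovaries of a mouse went into a library. P values therefore measure the spread between these libraries.

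Female germ cells enter meiosis in the fetal ovary, where cohesin rings hold sister chromatids together and the synaptonemal complex zips homologous chromosomes while they recombine. Around birth the oocytes dismantle the synaptonemal complex and rest in prophase I inside follicles, with the chromosomes still held by meiotic cohesin. Growing oocytes then make and store mRNA that is translated later, and RNA-binding proteins such as DAZL and DDX4 and the MOS kinase belong to that store and its use. In an adult ovary oocytes are a small fraction of all cells, and their RNA is diluted by that of granulosa, theca, stromal and luteal cells. A lower or higher level in bulk RNA cannot tell fewer or more cells of a type apart from less or more RNA per cell.

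The libraries held 25247770 to 34406296 counted reads. Of the genes listed, 19423 had counts high enough to be tested, and 1372 of them (7.06%) passed an adjusted p of 0.05 in the edgeR quasi-likelihood fit (Benjamini-Hochberg adjustment over all of them), 559 higher (2.88%) and 813 lower (4.19%) in Bnc1tr/tr ovaries. Scaling by library size alone called 1728 genes, of which 64.4% were higher, against 40.7% of the calls after TMM scaling. Over all tested genes the log2 fold change then had a median of 0.118, against 0.018. Bnc1 itself was read at 13.9, 13.4 and 13.1 CPM (read counts scaled to a common library total, after TMM scaling) in Bnc1+/+ ovaries and at 18.7, 13.7 and 11.5 CPM in Bnc1tr/tr ovaries. The genotypes overlapped, with a log2 fold change of 0.12 (edgeR adjusted p = 0.733), and a count over the whole gene does not show a 5 bp deletion. In 2 libraries the summed level of 12 oviduct markers stood apart, at 174 CPM in Bnc1+/+ replicate 1 and 564 CPM in Bnc1tr/tr replicate 3, against 36 to 56.8 CPM in the other 4 libraries.

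Of the 10 genes, 8 had enough counts to be tested. Of these 8, 2 passed the threshold, Dazl and Mos, both higher in Bnc1tr/tr ovaries, beside 2.88% of all genes called higher. The count called lower was 0 in edgeR, also at an unadjusted p under 0.05, and 0 in DESeq2 and limma-voom. With both libraries high in oviduct markers left out, edgeR called 0 of the 8 and 304 of all genes, and 2 of the 8 had an unadjusted p under 0.05, both higher. Dazl and Mos were also the 2 of 8 tested genes whose CPM did not overlap between the genotypes, against 30.8% of all genes tested. Over the 8 tested genes the log2 fold change had a median of 0.16, against 0.018 over all tested genes. Sycp1 and Sycp2 were too low to be tested.

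**Figure D1:**
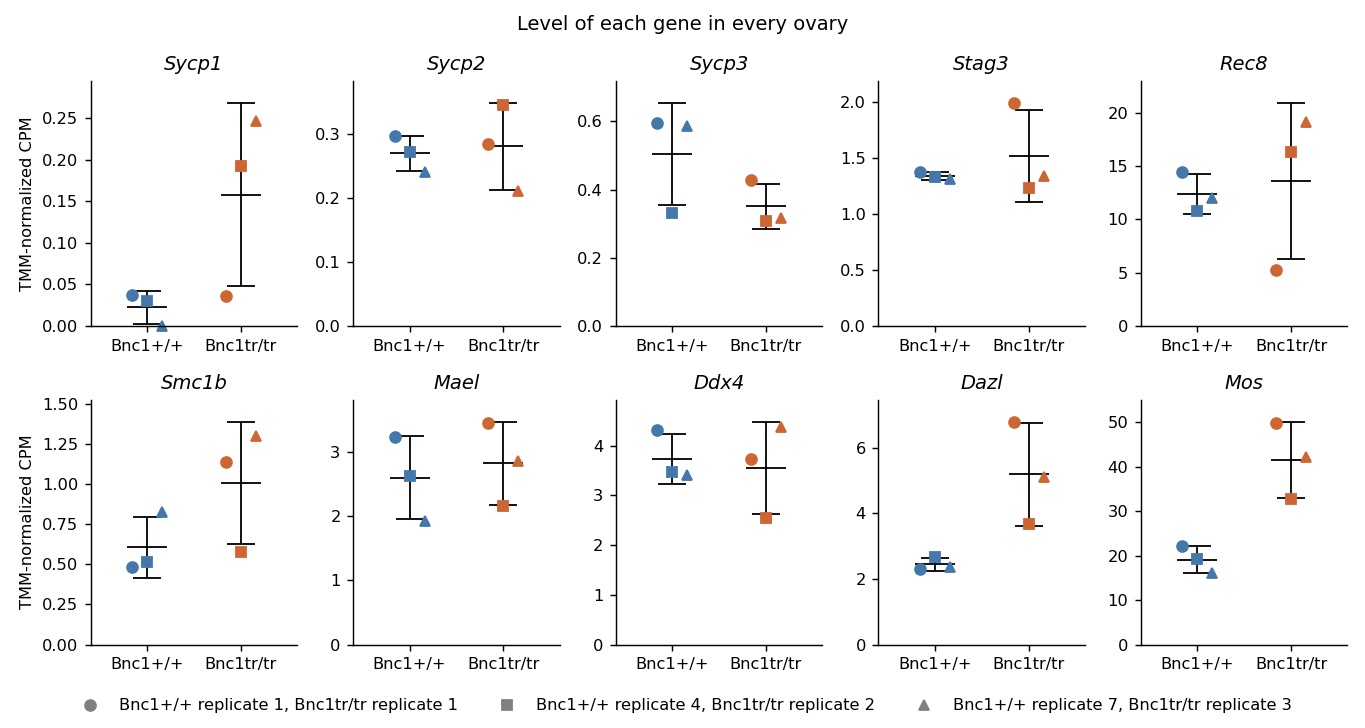
TMM-normalized CPM (linear vertical axes from 0, each gene on its own scale) of the 10 genes in the 6 ovary libraries, with the mean as a wide dash and the SD as error bars (n = 3 per genotype). In the panels of Dazl and Mos all 3 Bnc1tr/tr points lie above all 3 Bnc1+/+ points, and in the panel of Rec8 the Bnc1tr/tr points run from 5.30 to 19 CPM.

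Mos encodes the kinase that starts the MAP kinase cascade in maturing oocytes and holds eggs at metaphase II. It is a gene of a single exon of 1449 bases at chr4:3870657-3872105 on the minus strand (GRCm38, GENCODE M21, ENSMUSG00000078365.5). Its counts were 594, 635 and 467 in Bnc1+/+ ovaries and 1401, 849 and 1193 in Bnc1tr/tr ovaries. After scaling, these were 22.1, 19.2 and 16.1 CPM against 49.8, 32.7 and 42.1 CPM. Every Bnc1tr/tr ovary was above every Bnc1+/+ ovary, and the lowest of them, replicate 2, still exceeded the highest Bnc1+/+ ovary. The means were 19 ± 2.99 CPM and 41.5 ± 8.59 CPM (SD, n = 3 each). Mos rose by 1.12 on the log2 scale (2.17-fold, SE 0.18, 95% interval 0.71 to 1.53, edgeR adjusted p = 0.012). Without Bnc1+/+ replicate 4 or replicate 7 the adjusted p was 0.0764 or 0.0501, with log2 fold changes of 1.11 and 1.0. Without both libraries high in oviduct markers it was 0.0651, with a log2 fold change of 1.21.

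Dazl encodes an RNA-binding protein that binds the 3' ends of germ cell mRNAs and promotes their translation, in oocytes most of all during maturation. It lies at chr17:50279395-50293636 on the minus strand (ENSMUSG00000010592.9). Its counts were 62, 88 and 68 in Bnc1+/+ ovaries and 191, 95 and 145 in Bnc1tr/tr ovaries, which gave 2.30, 2.66 and 2.35 CPM against 6.79, 3.66 and 5.11 CPM. The Bnc1+/+ ovaries lay close together, the Bnc1tr/tr ovaries were spread, and the groups did not overlap. The means were 2.44 ± 0.194 CPM and 5.19 ± 1.57 CPM (SD, n = 3 each). Dazl rose by 1.09 on the log2 scale (2.13-fold, SE 0.26, 95% interval 0.49 to 1.68, edgeR adjusted p = 0.0459). This call was close to the threshold and was lost in 7 of 14 alternatives, with limma-voom (adjusted p = 0.0559), without any single library except Bnc1tr/tr replicate 2, and without both libraries high in oviduct markers (edgeR adjusted p = 0.227). Without 1 of Bnc1+/+ replicates 1, 4 and 7 the edgeR adjusted p was 0.12, 0.147 and 0.146, and without Bnc1tr/tr replicate 1 or 3 it was 0.0931 or 0.105; over all 14 alternatives the log2 fold change was 0.85 to 1.28 and the adjusted p 0.00326 to 0.227.

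Ddx4 encodes the DEAD-box RNA helicase VASA, a standard marker of the germ line, and Mael encodes a component of germ granules needed for silencing transposons through small RNAs. Ddx4 lies at chr13:112598333-112652475 and Mael at chr1:166201201-166238747, both on the minus strand (ENSMUSG00000021758.14 and ENSMUSG00000040629.8). Ddx4 was read at 4.31, 3.47 and 3.41 CPM in Bnc1+/+ ovaries and at 3.73, 2.54 and 4.37 CPM in Bnc1tr/tr ovaries, from 66 to 124 counts per library. The Bnc1tr/tr ovaries held both the lowest and the highest value. The means were 3.73 ± 0.502 and 3.55 ± 0.929 CPM (SD, n = 3 each), and the log2 fold change was -0.07 (SE 0.25, 95% interval -0.64 to 0.50, edgeR adjusted p = 0.891).

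Mael was read at 3.23, 2.63 and 1.93 CPM in Bnc1+/+ ovaries and at 3.45, 2.16 and 2.86 CPM in Bnc1tr/tr ovaries, from 56 to 97 counts per library. The values of the genotypes were interleaved. The means were 2.60 ± 0.652 and 2.82 ± 0.648 CPM (SD, n = 3 each), and the log2 fold change was 0.12 (SE 0.28, 95% interval -0.52 to 0.76, edgeR adjusted p = 0.828).

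The promoter windows of 9 of the 10 genes, all but Mos, were found by symbol in a RefSeq table of GRCm38.p6, and 3 short motifs were searched on both strands from 250 bases before to 50 bases after the start. The first was CACGTG, the E-box of MAX and MGA, 2 partners in the complex that silences germ line genes outside the germ line. The second was TCCCGC, the core of an E2F6 site, and E2F6 is another part of that complex. The third was the general E-box, CANNTG, of which the first motif is 1 form, so that each copy of the first is also a copy of the third. The MAX and MGA E-box stood in 5 of the 9 windows (Mael, Sycp1, Stag3, Sycp3 and Ddx4), against 7.15% of the 32851 windows in the table. The E2F6 core, on either strand, stood in 7 of the 9, all but Sycp2 and Dazl, against 20% of all windows, and the general E-box stood in 8 of 9, against 72.3%. The windows held a median of 24 CG dinucleotides (10 to 38), against 7 over all windows. Both the MAX and MGA E-box and the E2F6 core contain a CG, and the shares over all windows were not matched for CG content. The upstream parts of 4 genes are shown, so that Dazl, whose window holds neither the MAX and MGA E-box nor the E2F6 core, can be read beside Ddx4, Mael and Sycp3, whose windows hold both. The window of Sycp2, a gene too low to be tested, also holds neither, and Mos has no window. Whether these motifs go with the calls was not tested. Each runs 5' to 3' over the 250 bases before the RefSeq start on the strand of the gene, with the MAX and MGA E-box and the E2F6 core (on either strand) in capitals. They are chr17:50293621-50293870, minus strand, for Dazl, chr13:112652311-112652560, minus strand, for Ddx4, chr1:166238745-166238994, minus strand, for Mael, and chr10:88459337-88459586, plus strand, for Sycp3.
Dazl: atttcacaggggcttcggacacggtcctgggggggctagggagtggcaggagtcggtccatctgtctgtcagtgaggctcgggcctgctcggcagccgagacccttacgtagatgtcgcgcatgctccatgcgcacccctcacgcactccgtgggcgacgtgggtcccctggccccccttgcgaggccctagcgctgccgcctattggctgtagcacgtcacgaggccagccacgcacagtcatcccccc
Ddx4: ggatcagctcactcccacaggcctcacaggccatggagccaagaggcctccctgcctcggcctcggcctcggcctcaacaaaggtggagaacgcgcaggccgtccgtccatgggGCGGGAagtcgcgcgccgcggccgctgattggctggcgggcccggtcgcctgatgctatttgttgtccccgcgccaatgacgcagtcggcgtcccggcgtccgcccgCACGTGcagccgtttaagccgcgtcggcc
Mael: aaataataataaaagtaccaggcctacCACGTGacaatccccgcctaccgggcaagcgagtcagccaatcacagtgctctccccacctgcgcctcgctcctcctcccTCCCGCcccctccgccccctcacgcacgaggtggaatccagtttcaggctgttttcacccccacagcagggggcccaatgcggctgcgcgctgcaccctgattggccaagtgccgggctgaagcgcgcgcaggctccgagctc
Sycp3: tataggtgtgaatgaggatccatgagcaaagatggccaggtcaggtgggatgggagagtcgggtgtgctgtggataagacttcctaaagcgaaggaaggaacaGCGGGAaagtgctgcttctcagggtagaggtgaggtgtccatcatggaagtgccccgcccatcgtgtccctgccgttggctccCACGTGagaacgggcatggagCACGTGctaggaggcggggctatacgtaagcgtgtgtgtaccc
Counted from the start, the MAX and MGA E-box begins at position -29 in Ddx4, at -64 and -43 in Sycp3, and at -223 in Mael. A match of letters is a description of these windows and was not tested for binding.

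None of the meiotic cohesin genes Rec8, Stag3 and Smc1b passed the threshold in edgeR, DESeq2 or limma-voom, and none had an unadjusted p under 0.05. Rec8 encodes the meiotic kleisin, the subunit that closes the cohesin ring in place of RAD21. It lies at chr14:55618037-55625395 on the plus strand (ENSMUSG00000002324.8). Rec8 was read at 14.4, 10.8 and 12.0 CPM in Bnc1+/+ ovaries and at 5.30, 16.3 and 19 CPM in Bnc1tr/tr ovaries. Bnc1tr/tr replicate 1 was the lowest of all 6 ovaries and the other Bnc1tr/tr ovaries were the highest, a 3.6-fold span within the genotype against 1.34-fold in Bnc1+/+. The means were 12.4 ± 1.85 and 13.6 ± 7.29 CPM (SD, n = 3 each), and the log2 fold change was 0.13 (SE 0.40, 95% interval -0.80 to 1.07, edgeR adjusted p = 0.873). The same replicate 1 had the highest CPM of the Bnc1tr/tr ovaries for 5 of the 8 tested genes, among them Dazl and Mos, so Rec8 differed from them in which ovary was low.

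Stag3 encodes the meiotic stromal antigen subunit of cohesin and lies at chr5:138280240-138312393 on the plus strand (ENSMUSG00000036928.14). It was read at 1.38, 1.33 and 1.31 CPM in Bnc1+/+ ovaries and at 1.99, 1.23 and 1.34 CPM in Bnc1tr/tr ovaries. Only Bnc1tr/tr replicate 1 lay clearly above the other ovaries. The log2 fold change of Stag3 was 0.19 (SE 0.27, 95% interval -0.44 to 0.81, edgeR adjusted p = 0.715).

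Smc1b encodes the meiotic version of the SMC1 arm of the ring, which keeps cohesion in oocytes through their long arrest. It lies at chr15:85064689-85131964 on the minus strand (ENSMUSG00000022432.7). Its counts were 13, 17 and 24 in Bnc1+/+ ovaries and 32, 15 and 37 in Bnc1tr/tr ovaries, or 0.483, 0.514 and 0.828 CPM against 1.14, 0.577 and 1.30 CPM. Bnc1tr/tr replicates 1 and 3 lay above all Bnc1+/+ ovaries and replicate 2 lay among them. The log2 fold change was 0.73 (SE 0.39, 95% interval -0.18 to 1.64, edgeR adjusted p = 0.304), on at most 37 reads per ovary.

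Sycp1, Sycp2 and Sycp3 were near the limit of detection in these 8-week-old ovaries. Sycp3, which encodes a structural protein of the lateral element, had 16, 11 and 17 counts in Bnc1+/+ ovaries and 12, 8 and 9 counts in Bnc1tr/tr ovaries, or 0.595, 0.332 and 0.586 CPM against 0.427, 0.308 and 0.317 CPM. Bnc1+/+ replicate 4 lay within the range of the Bnc1tr/tr ovaries. The log2 fold change of Sycp3 was -0.51 (SE 0.37, 95% interval -1.36 to 0.34, edgeR adjusted p = 0.445). Sycp3 lies at chr10:88459569-88473236 on the plus strand (ENSMUSG00000020059.9), and 660 of its 1264 exon bases are also covered by exons of Chpt1, a phospholipid synthesis gene on the opposite strand. Chpt1 stood at 23 to 29.9 CPM in the 6 ovaries (log2 fold change 0.17, edgeR adjusted p = 0.434), and since the strand setting of the counting is not given in the sources used here, reads of both genes cannot be told apart in the shared part.

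Sycp1, which encodes the transverse filament that joins the lateral elements, had 1, 1 and 0 counts in Bnc1+/+ ovaries and 1, 5 and 7 counts in Bnc1tr/tr ovaries. The summed counts were 2 and 13, a ratio per library total of 7.52 (95% interval 1.7 to 68.6, counting error only), and Bnc1tr/tr replicate 1 lay within the range of the Bnc1+/+ ovaries. With no filter on low counts edgeR gave a log2 fold change of 2.59 and an adjusted p of 0.241, so no change was called. The 0 in Bnc1+/+ replicate 7 allows up to 3 counts. Sycp2, which encodes a lateral element protein, had 8, 9 and 7 counts against 8, 9 and 6, a ratio of 1.11 (95% interval 0.598 to 2.05, counting error only). The Sycp2 counts of the genotypes overlapped fully. Sycp1 lies at chr3:102818499-102936100 and Sycp2 at chr2:178345293-178407685, both on the minus strand (ENSMUSG00000027855.13 and ENSMUSG00000060445.11).

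**Figure D2:**
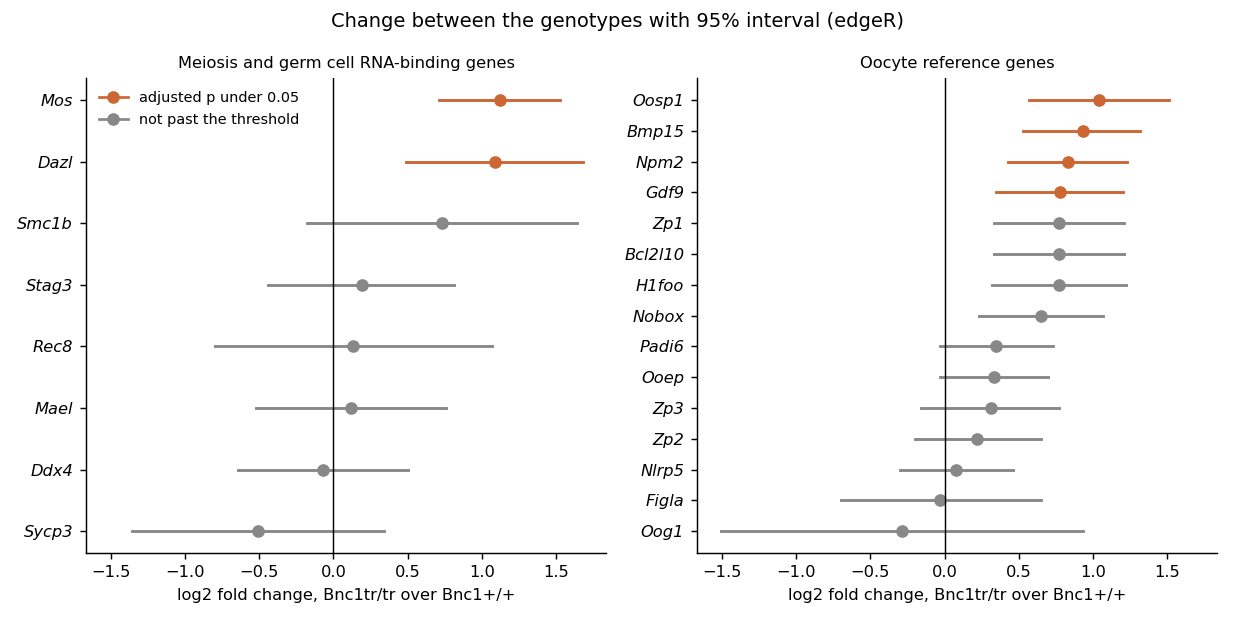
Log2 fold change (horizontal axis, Bnc1tr/tr over Bnc1+/+) with its 95% interval from edgeR for the 8 tested genes (left) and for 15 oocyte reference genes (right), 3 ovaries per genotype. Mos at 1.12 and Dazl at 1.09 are past the threshold on the left, and Oosp1, Bmp15, Npm2 and Gdf9 on the right.

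Levels of different genes were compared as CPM per kilobase of exon. In Bnc1+/+ ovaries the order from the top was Mos (13.2 ± 2.06), Rec8 (4.21 ± 0.63), Mael (1.5 ± 0.376), Ddx4 (1.24 ± 0.167), Dazl (0.638 ± 0.0507), Sycp3 (0.399 ± 0.118), Stag3 (0.233 ± 0.00582), Smc1b (0.150 ± 0.0471), Sycp2 (0.0453 ± 0.0047) and Sycp1 (0.00632 ± 0.00556; mean ± SD, n = 3). Among neighbours in this order, Mael and Ddx4 differed by less than the SD of Mael, and the other neighbours differed by more than either SD. The place of Sycp3 is uncertain in both genotypes, since 660 of its 1264 exon bases are shared with Chpt1. In Bnc1tr/tr ovaries Mos stood at 28.7 ± 5.93 and Rec8 at 4.62 ± 2.48, and Dazl at 1.36 ± 0.411 lay between Mael at 1.63 ± 0.374 and Ddx4 at 1.18 ± 0.308 and differed from each of them by less than either SD. In the same ovaries Sycp3 (0.277 ± 0.0523), Stag3 (0.265 ± 0.0717) and Smc1b (0.249 ± 0.0941) differed by less than their SDs, and so did Sycp2 (0.0471 ± 0.0113) and Sycp1 (0.0445 ± 0.0308). On the same scale the oocyte growth factor gene Gdf9 stood at 83.8 ± 13.4 in Bnc1+/+ ovaries and 144 ± 31.2 in Bnc1tr/tr ovaries, above the mean of each of the 10 genes.

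The relatives of these genes that act outside meiosis stood at far higher levels per kilobase. Rad21, the mitotic counterpart of Rec8, stood at 40 ± 0.679 CPM per kilobase in Bnc1+/+ ovaries, Smc1a, the counterpart of Smc1b, at 19.6 ± 0.867, and Stag1 and Stag2, the counterparts of Stag3, at 4.25 and 8.35. Rad21 (log2 fold change 0.05, edgeR adjusted p = 0.776), Smc1a (-0.08, 0.635), Stag1 (0.09, 0.491) and Stag2 (0.28, 0.0938) did not pass the threshold. Sycp2l, the oocyte relative of Sycp2, had 53, 71 and 61 counts in Bnc1+/+ ovaries and 111, 83 and 110 counts in Bnc1tr/tr ovaries, or 1.97, 2.15 and 2.10 CPM against 3.95, 3.19 and 3.88 CPM. All 3 Bnc1tr/tr ovaries were above all Bnc1+/+ ovaries, and Sycp2l rose by 0.82 on the log2 scale (SE 0.20, edgeR adjusted p = 0.0484), a call that 6 of 14 alternatives kept. Rad21l, another meiotic kleisin, had 0 to 7 counts per ovary, and Boll, a relative of Dazl known from the testis, had 0 to 5, so neither was tested.

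Since oocytes are a small share of the ovary, each gene was also set against oocyte RNA of the same library. The reference was the mean log2 CPM of 15 oocyte genes that are not among the 10, such as Gdf9, Bmp15, Zp1, Zp2, Zp3, Nobox and Figla. This mean was 5.36, 5.31 and 4.95 in Bnc1+/+ ovaries and 5.91, 5.29 and 5.88 in Bnc1tr/tr ovaries, 0.48 higher in the mean of the Bnc1tr/tr ovaries and with overlapping values. Bnc1tr/tr replicate 2, the lowest of its genotype on this mean, also had the lowest CPM of its genotype for 7 of the 8 tested genes, all but Rec8. Of the 15 reference genes 4 rose in edgeR, beside 2.88% of all genes called higher: Oosp1 by 1.04 (adjusted p = 0.0262), Bmp15 by 0.93 (0.0204), Npm2 by 0.83 (0.0323) and Gdf9 by 0.78 (0.0458) on the log2 scale. DESeq2 called 8 higher and limma-voom 4, and without both libraries high in oviduct markers edgeR called 0, with 8 higher at an unadjusted p under 0.05. None was lower past the threshold in edgeR, DESeq2 or limma-voom, or at an unadjusted p under 0.05. The median log2 fold change over the 15 was 0.65, and 13 were above 0.

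Because the reference mean was higher in Bnc1tr/tr ovaries, a gene with equal CPM in both genotypes comes out lower on this scale, and of all tested genes 5337 were lower and 451 higher with no overlap. Mos stood at -0.89, -1.04 and -0.94 log2 units from the reference in Bnc1+/+ ovaries and at -0.27, -0.25 and -0.48 in Bnc1tr/tr ovaries. Dazl stood at -4.12, -3.86 and -3.68 in Bnc1+/+ ovaries and at -3.13, -3.39 and -3.51 in Bnc1tr/tr ovaries. Both were higher in every Bnc1tr/tr ovary, by 0.62 and 0.55 in the mean, while 2.32% of all tested genes were higher with no overlap on this scale. That share is over all tested genes and not over oocyte genes. The reference genes also differed among themselves, with edgeR log2 fold changes from -0.29 for Oog1 to 1.04 for Oosp1. Those of Mos and Dazl were 1.12 and 1.09, so a rise above the reference mean is not particular to Mos and Dazl.

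Ddx4 and Mael, whose CPM overlapped between the genotypes, were lower on this scale. Ddx4 stood at -3.23, -3.49 and -3.15 log2 units from the reference in Bnc1+/+ ovaries and at -3.98, -3.90 and -3.73 in Bnc1tr/tr ovaries (difference -0.58). Mael stood at -3.64, -3.88 and -3.95 in Bnc1+/+ ovaries and at -4.09, -4.13 and -4.33 in Bnc1tr/tr ovaries (difference -0.36). Stag3 (difference -0.34) and Sycp3 (difference -0.91) were also lower in every Bnc1tr/tr ovary, so that 4 of the 10 genes were lower with no overlap, beside 27.5% of all tested genes, and nothing particular to them is read from that count.

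For each of these 6 genes the exact two-sided permutation test gave p = 0.1, the smallest that 3 ovaries against 3 can reach, and 0.167 after Benjamini-Hochberg adjustment over the 10 genes. The threshold of 0.05 was out of reach on this scale. With a smaller reference of Gdf9, Bmp15 and Nobox the differences were 0.34 for Mos and 0.26 for Dazl. A change of reference shifts all genes alike, so the differences of Ddx4, Mael, Stag3 and Sycp3 also move down with it. Without both libraries high in oviduct markers the differences were 0.73 for Mos and 0.51 for Dazl. Rec8 (difference -0.54), Smc1b (0.15), Sycp1 (0.70) and Sycp2 (-0.45) overlapped between the genotypes. For Rec8 the difference came from Bnc1tr/tr replicate 1 at -3.48, against -1.25 and -1.62 in the other Bnc1tr/tr ovaries and -1.51, -1.87 and -1.36 in Bnc1+/+ ovaries.

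**Figure D3:**
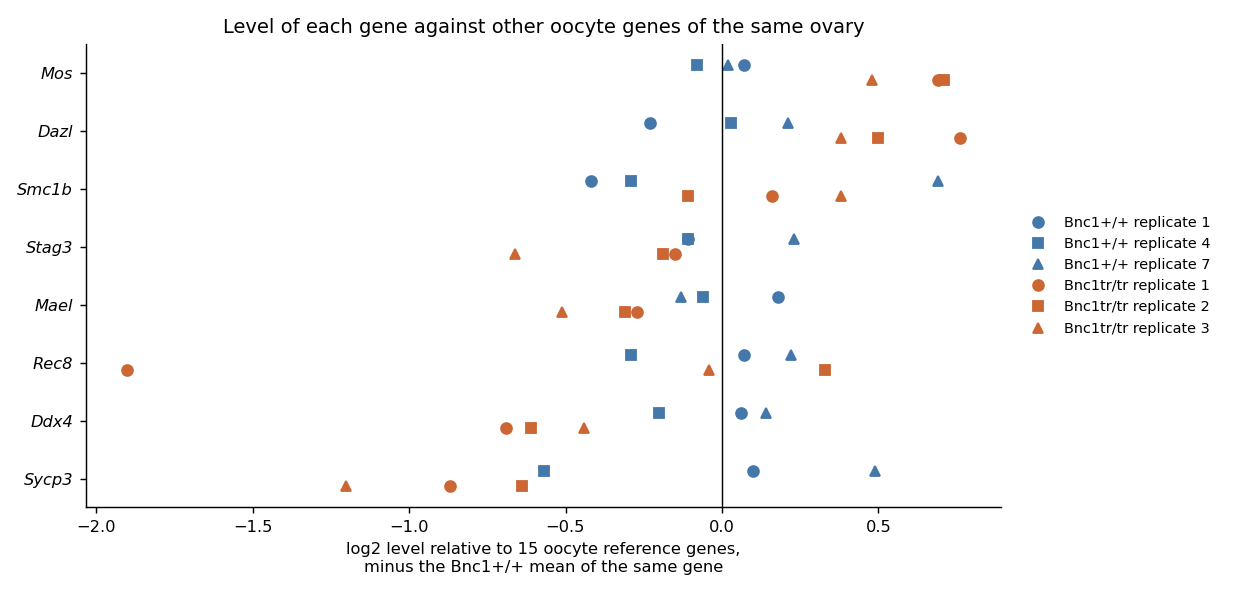
Log2 level of each tested gene relative to the mean of 15 oocyte reference genes in the same library, with the Bnc1+/+ mean of the gene set to 0 (horizontal axis, log2 units); 1 symbol per ovary library. Mos and Dazl lie to the right in all 3 Bnc1tr/tr ovaries, Stag3, Mael, Ddx4 and Sycp3 lie to the left in all 3, and Rec8 has 1 Bnc1tr/tr ovary far to the left.

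The genes that work with the 10 were followed in 8 lists of 152 distinct genes, of which 133 were tested. Of these, 12 passed the threshold (9.02%, beside 7.06% of all genes tested). In Bnc1tr/tr ovaries 10 were called higher (7.52% of the 133, beside 2.88% of all genes). The other 2 were called lower, beside 4.19% of all genes. Half-way in rank among the 133 lay a log2 fold change of 0.27 (median). Without both libraries high in oviduct markers 1 of them was called, Rps6ka2, and with DESeq2 32 were called. Of the calls described here, Rps6ka2 was kept in 14 of 14 alternatives and Tex19.1 and Aurkc in 12 of 14, while the others were kept in 5 to 9. In the synaptonemal complex and axis list 6 of 12 genes were tested and 3 rose, beside 2.88% of all genes called higher. The 3 were Sycp2l, Syce2 of the central element (log2 fold change 0.72, edgeR adjusted p = 0.0295) and Ccnb1ip1, which encodes the HEI10 ligase of crossover sites (2.21, 0.0146). Ccnb1ip1 rested on 3, 5 and 5 counts in Bnc1+/+ ovaries and 24, 17 and 16 in Bnc1tr/tr ovaries. By position Ccnb1ip1 overlaps the ribozyme gene Rpph1 on the same strand, and Syce2 overlaps Gcdh on the opposite strand. Shared exon bases were not counted for these pairs, so reads of the overlapping genes may be included. Syce3, Tex12, Six6os1, Hormad1, Hormad2 and Rnf212 were too low to be tested.

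In the meiotic recombination list 16 of 24 genes were tested, with a median log2 fold change of 0.33. In the list of cohesin and its regulators 1 of 19 rose, beside 2.88% of all genes called higher. This gene was Smc3, the arm that mitotic and meiotic rings share. Smc3 stood at 48.7, 51.0 and 48.8 CPM in Bnc1+/+ ovaries and at 59.7, 62.2 and 63.0 CPM in Bnc1tr/tr ovaries, a small difference between tight groups (0.32, edgeR adjusted p = 0.0439). This call was kept in 5 of 14 alternatives and was lost whenever any 1 ovary was left out (adjusted p 0.0505 to 0.146), with no filter on low counts (0.0775) and after thinning to equal totals (0.051). In the meiotic entry list 0 of 9 tested genes passed in edgeR, 1 passed in DESeq2 and in limma-voom, and 1 had an unadjusted p under 0.05 in edgeR; its median log2 fold change was 0.10. Stra8, the gene that drives entry into meiosis, had no more than 1 count in any ovary, and Meioc and Dmrt1 were too low to be tested.

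In the piRNA and germ granule list 2 of 21 genes rose, beside 2.88% of all genes called higher. Tex19.1, a germ line gene linked to transposon control, stood at 6.43, 5.29 and 4.0 CPM in Bnc1+/+ ovaries and at 22.9, 12.5 and 15.2 CPM in Bnc1tr/tr ovaries. The groups were far apart, and Tex19.1 rose by 1.69 on the log2 scale (3.22-fold, SE 0.26, edgeR adjusted p = 0.0114). Henmt1, the methyltransferase that protects the ends of piRNAs, rose by 1.30 (edgeR adjusted p = 0.0316). Mael and Ddx4, which work in the same granules, were not called. Among oocyte mRNA binding and storage genes, the partners of Dazl, 1 of 24 rose, beside 2.88% of all genes called higher. This gene was Btg4, an adaptor of maternal mRNA decay (0.82, edgeR adjusted p = 0.0465), and the median log2 fold change of the list was 0.30. In this list DESeq2 called 7 higher and limma-voom 0 (Btg4 at an adjusted p of 0.0583), and 11 were higher and 1 lower at an unadjusted p under 0.05 in edgeR.

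The list around Mos, the MAP kinase cascade and oocyte arrest, held calls in both directions, 2 higher and 2 lower of 24 tested. Over all genes tested, 2.88% were called higher and 4.19% lower. In this list DESeq2 called 6 higher and 4 lower, and limma-voom 2 higher and 2 lower. Aurkc, the Aurora kinase of germ cells, rose by 1.79 on the log2 scale (edgeR adjusted p = 0.0111), from 1.41, 2.11 and 1.62 CPM to 6.72, 4.12 and 6.98 CPM. Fbxo43, which encodes EMI2, the inhibitor that keeps eggs at metaphase II, rose by 1.02 (edgeR adjusted p = 0.0381). Rps6ka2, a ribosomal S6 kinase that MAP kinases activate, stood at 232, 225 and 245 CPM in Bnc1+/+ ovaries and at 113, 111 and 115 CPM in Bnc1tr/tr ovaries. Its groups were tight and fully apart, and Rps6ka2 fell by 1.05 on the log2 scale (edgeR adjusted p = 0.00096). Mapk3, which encodes the kinase ERK1, fell by 0.53 (edgeR adjusted p = 0.0329). Both kinases are also made by many somatic cells. Of the 15 genes that silence germ line genes in somatic cells, 0 passed in edgeR and limma-voom, 3 passed in DESeq2, all higher, 6 had an unadjusted p under 0.05 in edgeR, and their median log2 fold change was 0.18.

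**Figure D4:**
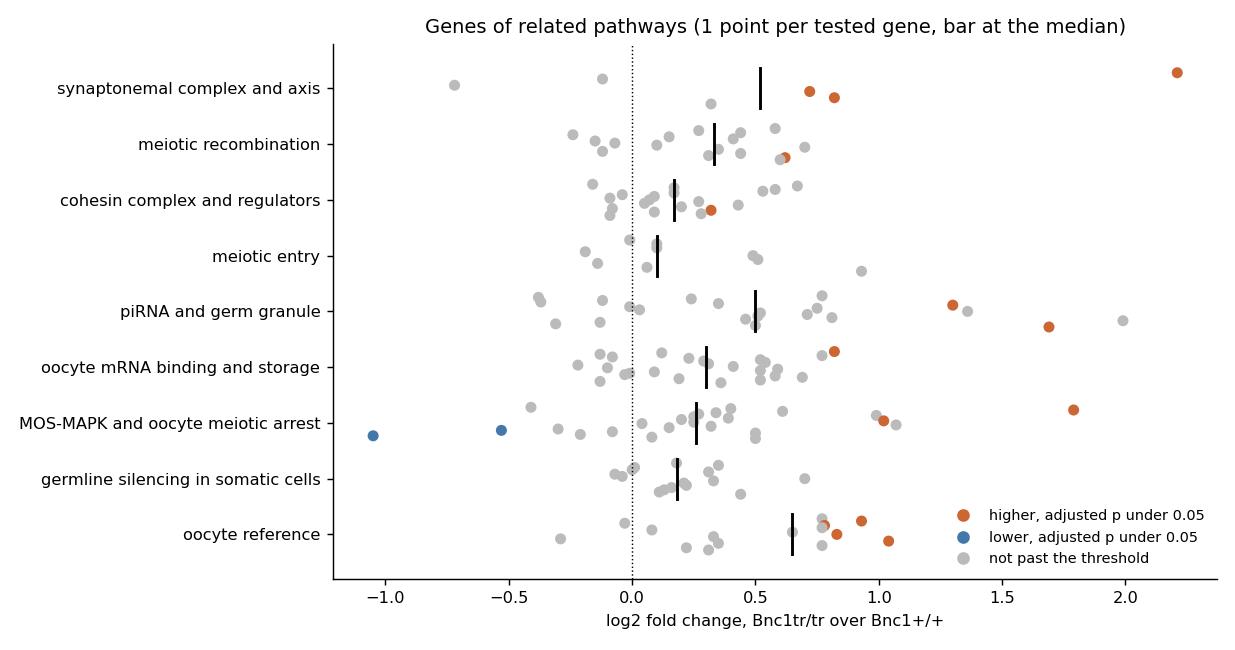
Log2 fold change (horizontal axis, Bnc1tr/tr over Bnc1+/+) of each tested gene in 8 related gene lists and the oocyte reference list, with a bar at the median of each list (positions within a row are spread for display only). List medians run from 0.10 for meiotic entry to 0.65 for the oocyte reference, and the 2 genes past the threshold on the left are Rps6ka2 and Mapk3.

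All 12 granulosa cell markers and all 15 oocyte reference genes had reads in each of the 6 libraries, and markers of the corpus luteum and some of granulosa cells differed with the genotype. Of 10 corpus luteum markers, 7 fell, beside 4.19% of all genes called lower. Among the 7, Lhcgr fell by 3.01 and Star by 2.23 on the log2 scale (edgeR adjusted p = 0.000235 and 0.0374). None of the 10 was at 0, and their summed level was 22700 to 26500 CPM in Bnc1+/+ and 6970 to 12500 CPM in Bnc1tr/tr ovaries. Without both libraries high in oviduct markers 3 of the 10 were called. Of 12 granulosa cell markers, 2 rose, Amh and Amhr2, beside 2.88% of all genes called higher, with 6 log2 fold changes above 0 and 6 below (median 0.15) and summed levels of 3830 to 5080 CPM and 4330 to 6510 CPM. Without both libraries high in oviduct markers 0 of the 12 were called, and 2 were higher and 1 lower at an unadjusted p under 0.05. Of the 9 theca and stroma markers 0 passed in edgeR and limma-voom and 3 in DESeq2, and 3 had an unadjusted p under 0.05 in edgeR. Of the 11 tested oviduct markers 0 passed in edgeR and limma-voom and 1 in DESeq2, with 1 at an unadjusted p under 0.05. The 8 immune cell and 5 erythrocyte markers had 0 calls with all 3 tools and 1 each at an unadjusted p under 0.05 in edgeR. The part of these cell types in the values of Mos, Dazl and the other genes was not tested.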

How the data were processed

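Total RNA of whole ovaries was extracted with TRIzol, made into single-end Ion Total RNA-Seq libraries and sequenced on the Ion Proton platform by the study. The authors deposited raw counts of reads per gene and ovary, with genes listed by symbol. The aligner, the counting tool and its strand setting are not given in the sources used here, and the submitters' processing notes name the builds mm10 and Sscrofa10.2 without a role.

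All 6 count columns were matched to samples by their titles. Genes were kept with filterByExpr (minimum count 10), scaled with TMM and compared with edgeR 4.0.16 (quasi-likelihood, two-sided, R 4.3.3), with Benjamini-Hochberg adjustment over all 19423 genes tested and a threshold of 0.05. DESeq2 1.42.0 and limma-voom (limma 3.58.1) were alternatives. The standard error is the absolute log2 fold change over the square root of F. No 2 libraries agreed within sampling noise. Oocyte-relative levels took log2 CPM (prior count 2) and exact permutation tests. Exon lengths and positions came from GENCODE M21 on GRCm38, and promoter windows from RefSeq on GRCm38.p6. Older symbols were matched for 13 of 152 pathway genes.

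The members and lists were chosen with earlier results of these data known. Genes named in the text were the 10 members, Bnc1, the relatives of members, up to 6 called genes per pathway list and oocyte reference list with the largest log2 fold change, and markers. Further named genes are Chpt1, Stra8, other untested list genes, Lhcgr, Star, Amh and Amhr2, chosen after their values were seen. Rpph1 and Gcdh are named only for where they lie. Protein sequences were not analysed here. The calls within the meiotic recombination list are not reported here.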

Additional observations from a re-analysis of the deposited data

How the results depend on the processing

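Over all tested genes, 2420 were called with DESeq2 and 304 with both libraries high in oviduct markers left out (Bnc1+/+ replicate 1 and Bnc1tr/tr replicate 3), a setting chosen after seeing the data; leaving out 1 ovary gave 320 to 1282 calls, against 1372. Of the 10 genes, limma-voom called 1, that setting 0, and leaving out 1 ovary 0 to 2, against 2. Of the pathway genes, scaling by library size alone called 30, DESeq2 32, the setting without both libraries 1, and leaving out 1 ovary 2 to 26, against 12. Without Bnc1+/+ replicates 1, 4 and 7 in turn, 781, 320 and 518 of all genes, 1, 0 and 0 of the 10 and 3, 2 and 2 of the pathway genes were called; without Bnc1tr/tr replicates 1, 2 and 3 in turn, 979, 1282 and 634, then 1, 2 and 1, and 5, 26 and 4. Some of these fits also had fewer ovaries, and the causes of the differences were not tested. Mos was called in 11 of 14 alternatives and Dazl in 7 of 14.

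Changes of direction were found only for log2 fold changes that were not called. Leaving out 1 ovary gave -0.06 to 0.31 for Stag3 (lowest without Bnc1tr/tr replicate 1), -0.20 to 0.52 for Rec8 (-0.02 and -0.20 without Bnc1tr/tr replicates 2 and 3), -0.06 to 0.29 for Mael (-0.06 and -0.05 without Bnc1+/+ replicate 7 and Bnc1tr/tr replicate 1), -0.25 to 0.12 for Ddx4 (0.03 and 0.12 without Bnc1+/+ replicate 1 and Bnc1tr/tr replicate 2) and -0.01 for Rad21 without Bnc1tr/tr replicate 1. Rec8 was at -0.05 with limma-voom and -0.08 without both libraries, and with library size alone Ddx4 was at 0.03 and Smc1a at 0.02. The oocyte-relative difference ran from -0.97 to 0.15 for Rec8 and from -0.06 to 0.50 for Smc1b when 1 ovary was left out, and for Smc1b it was -0.13 with the reference of Gdf9, Bmp15 and Nobox and -0.18 without both libraries. Of the other log2 fold changes, 94 lost and 1 gained the call, and 283 stayed on their side. A minimum of 10 counts in all 6 ovaries left no value for Sycp3 and Ccnb1ip1. At these depths Sycp1, Sycp2 and Sycp3 rest on at most 17 reads per ovary. No paired analysis was possible because the genotypes share only replicate number 1 and the sources used here do not say which libraries are littermates; a litter structure could lie behind these unpaired fits.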
